A study of Mus musculus with 2 samples.

Results

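The 10 genes described here act downstream of the kinase ERK, and were followed across the nuclei of mouse livers with diet-induced MASH (metabolic dysfunction-associated steatohepatitis). They are 3 MAP kinase phosphatases (*Dusp4*, *Dusp5* and *Dusp6*), 4 Sprouty and Spred inhibitors (*Spry1*, *Spry2*, *Spry4* and *Spred1*), 2 ETS transcription factors (*Etv4* and *Etv5*) and *Phlda1*, which codes a protein with a pleckstrin homology-like domain. The genes were chosen by symbol for these roles, with earlier results of these data known, and all 10 were found among the 32285 genes measured. ERK is the last kinase of a cascade that runs from growth factor receptors through RAS, RAF and MEK. When it is active it induces genes that turn the cascade down again: the phosphatases remove the activating phosphates from ERK, and the Sprouty and Spred proteins act upstream on RAS and RAF. Transcripts of these genes are therefore widely read as a record of recent ERK activity, and ERK signalling in hepatocytes is the pathway that the study linked to THEMIS, an adaptor protein best known from T cells.

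There were 2 snRNA-seq libraries of liver nuclei from male C57BL6/J mice, which had received a MASH diet (40% of energy as fat, 20% as fructose, and 2% cholesterol) for 5 months from an age of 10 to 12 weeks. The library labelled Flox came from *Themis* flox/flox mice, and the library labelled HKO from mice labelled *Themis* Alb-Cre, in which a Cre recombinase under the albumin promoter was to delete *Themis* in hepatocytes. Both groups had the same diet, and there was no chow group among these libraries. Liver tissue of several mice was pooled for each library, so that n = 1 for each genotype, no difference has a replicate check, and no p-values are given.

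The deposited matrices held 9363 and 10748 nuclei with 58171337 and 40475938 unique molecular identifiers (UMIs, each standing for 1 captured transcript); in this and all later pairs the library labelled Flox comes first. After filtering, 8659 and 9801 nuclei remained, among them 5832 and 4452 hepatocytes with a median of 7439.5 and 5797.5 UMIs. All 22 hepatocyte markers were detected in these nuclei and were at least 1.5 times as high as in the other types. The same markers assigned the nuclei, so this does not check the name independently. *Themis* itself went against the label: hepatocytes held 163 and 247 CPM (the share of a gene in the UMIs of the summed nuclei, on the scale usual for counts), a ratio of 1.51 (95% interval, 1.46–1.57). The position of the floxed exons relative to the counted 3′ end is not given in the sources used here, so this level does not check the deletion, and the groups are called by their library labels throughout. The libraries shared 27 barcodes, 24 of them among the nuclei kept. Intervals are 95% intervals for counting error only. They do not cover the difference between mice or preparations, from which the genotype cannot be told apart.

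In hepatocytes the 10 genes did not move as a block. Of the 9 with at least 50 UMIs over both libraries, 4 were at least 1.5-fold higher in the library labelled HKO (*Dusp6*, *Dusp5*, *Spry1* and *Etv5*), 2 were at least 1.5-fold lower (*Phlda1* and *Etv4*), and 3 lay between (*Dusp4*, *Spred1* and *Spry4*). Over all 13193 genes with as many UMIs, 10.4% were higher by that fold and 11.9% lower. The median log2 ratio of the 9 genes, with a pseudocount of 1 CPM, was 0.39, against -0.017 for all genes, of which the middle 50% lay between -0.28 and 0.24. Only 4 members had at least 200 UMIs (*Dusp6*, *Phlda1*, *Spred1* and *Spry4*), and of these *Dusp6* was past the fold upward and *Phlda1* downward.

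**Figure D1:**
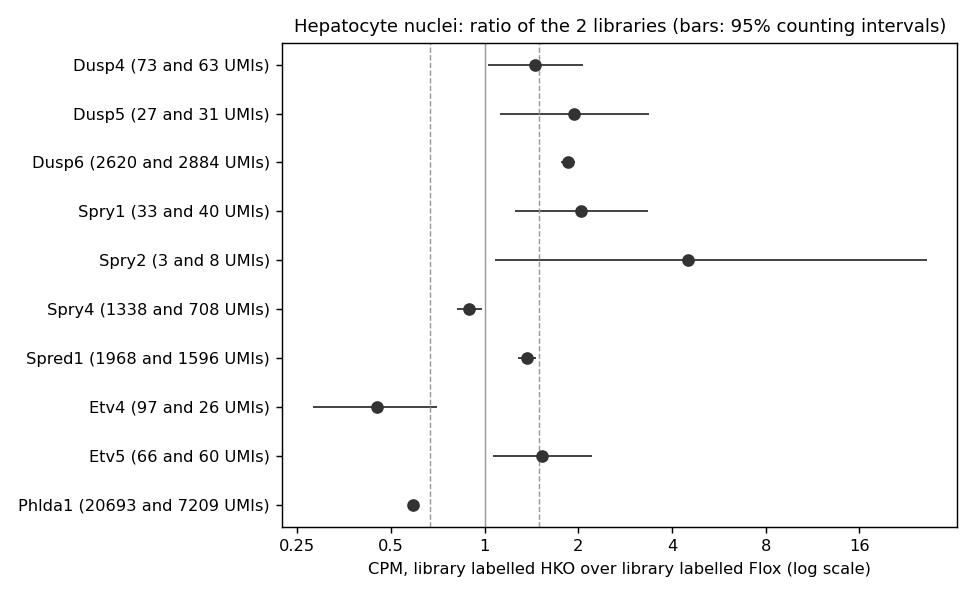
Ratio of CPM in hepatocyte nuclei, library labelled HKO over library labelled Flox, on a log axis, for each of the 10 genes. Points are ratios, bars 95% counting intervals and dashed lines the 1.5-fold limits; *Dusp6* (1.86) and *Phlda1* (0.588) have the narrowest bars on either side, while *Spry2* rests on 3 and 8 UMIs.

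*Dusp6* codes the cytoplasmic phosphatase that is specific for ERK. It lies on the plus strand of chromosome 10 from 99263231 to 99267489 (GRCm38), with no other counted gene overlapping it. Hepatocytes held 2620 and 2884 of its UMIs, or 57.0 (54.9–59.3) and 106 (102–110) CPM. The level in the library labelled HKO was 1.86-fold (1.76–1.96) that in the library labelled Flox, and the intervals did not overlap. At equal depth, after each nucleus had been thinned to 1000 UMIs, 5.67% (5.09–6.30) and 10.2% (9.36–11.2) of hepatocyte nuclei held a *Dusp6* UMI. Without thinning the shares were 29.5% and 37.3%. In cholangiocytes, where the gene was lowest apart from B cells, the thinned shares were 1.96% (2 of 102 nuclei) and 3.63% (14 of 386), at median depths of 1848 and 1445 UMIs.

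*Phlda1* moved the other way. This gene, on the plus strand of chromosome 10 from 111506286 to 111508645, is an immediate response gene that growth factors induce through ERK. Its 20693 and 7209 hepatocyte UMIs gave 450 (444–457) and 265 (259–271) CPM, a ratio of 0.588 (0.572–0.604). After thinning, 31.4% (30.2–32.7) and 21.5% (20.3–22.8) of hepatocyte nuclei held a UMI, against 0.557% and 1.41% of macrophages, the type with the lowest *Phlda1* level in the library labelled Flox (median depths 2120 and 1377 UMIs). Unthinned, the hepatocyte shares were 79.3% and 58.9%. A gene on the opposite strand, *Gm28592*, overlaps *Phlda1*, and the 3′ protocol marks the strand.

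Of the inhibitors, *Spred1*, which recruits neurofibromin to RAS, was at 42.8 (41.0–44.8) and 58.6 (55.8–61.6) CPM in hepatocytes. The ratio of 1.37 (1.28–1.46) was above 1 but under the 1.5-fold limit. *Spry4* was at 29.1 (27.6–30.7) and 26.0 (24.1–28.0) CPM, a ratio of 0.893 (0.814–0.978) in the opposite direction. *Spred1* and *Spry4*, both inhibitors of the cascade, lay on different sides of 1 in the same nuclei.

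The remaining 6 genes were scarce in hepatocytes. *Dusp4*, a nuclear phosphatase of ERK, had 73 and 63 UMIs and a ratio of 1.46 (1.02–2.07). *Dusp5*, a nuclear phosphatase that also anchors ERK there, had 27 and 31 UMIs and a ratio of 1.94 (1.12–3.37). *Spry1* had 33 and 40 UMIs and a ratio of 2.04 (1.26–3.35). The intervals of all 3 lay above 1 and held 1.5. *Etv5* had 66 and 60 UMIs and a ratio of 1.53 (1.06–2.21). *Etv4*, its close relative of the PEA3 subfamily, had 97 and 26 UMIs, or 2.11 and 0.955 CPM, and a ratio of 0.452 (0.281–0.703). These ETS factors differed in direction, each on few UMIs. *Spry2* had 3 and 8 UMIs (0.0653 and 0.294 CPM), a ratio of 4.50 with a counting interval from 1.08 to 26.3.

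RNA of other cell types in the hepatocyte nuclei bears on the scarce genes. Summed over their lists, HSC markers in hepatocytes reached 0.161% and 0.286% of their level in hepatic stellate cells (HSCs), and endothelial markers 0.191% and 0.279%. Macrophage markers reached 0.175% and 0.370%, and no marker of these 3 lists was at 0. Cholangiocyte markers reached more, 1.17% and 1.58%, as did B cell markers with 1.03% and 1.42%, while T cell markers reached 0.0803% and 0.0928%. Hepatocyte nuclei were kept only where no other list held both 3 UMIs and 0.1% of UMIs, which limits these marker shares. The members were not limited so, and a member above these shares is not thereby shown to exceed RNA of other types. The hepatocyte level of *Spry2* was 0.157% and 0.568% of its HSC level. That of *Spry1* was 0.532% and 1.40%, and that of *Dusp5* 1.89% and 3.16%. For *Etv4* the hepatocyte level was 13.6% and 2.30% of its cholangiocyte level, the former on 3 cholangiocyte UMIs. Among the 1117 and 976 hepatocyte nuclei without a UMI of another type's markers, *Dusp6* and *Phlda1* kept their directions (log2 ratios of 0.99 and -0.90), whereas 3 members changed sign: *Dusp4* to -1.18 (12 and 1 UMIs), *Dusp5* to -0.025 (6 and 4 UMIs) and *Spry4* to 0.13 (177 and 134 UMIs).

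Promoters were searched because ERK acts on genes such as these through ETS factors and serum response factor. Of the 6 genes searched, the sequences of *Dusp6*, *Spred1* and *Dusp5* are shown because these held a motif match. They are the 250 bases before the transcription start in the RefSeq table for GRCm38.p6, on the plus strand. Capitals mark matches to 4 motifs searched on both strands. These were CGGAAG as a form of an ETS site, the AP-1 site TGANTCA, the CRE site TGACGTCA and the CArG box. The CArG box is the site of serum response factor. Shorter or other forms of an ETS site, such as GGAA alone, were not searched.
*Dusp6* promoter, chr10:99262981-99263230: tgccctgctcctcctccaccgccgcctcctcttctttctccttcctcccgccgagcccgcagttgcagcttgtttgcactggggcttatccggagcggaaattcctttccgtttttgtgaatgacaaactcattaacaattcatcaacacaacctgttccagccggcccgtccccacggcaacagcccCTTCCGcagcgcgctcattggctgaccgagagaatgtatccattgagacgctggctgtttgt
*Spred1* promoter, chr2:117120821-117121070: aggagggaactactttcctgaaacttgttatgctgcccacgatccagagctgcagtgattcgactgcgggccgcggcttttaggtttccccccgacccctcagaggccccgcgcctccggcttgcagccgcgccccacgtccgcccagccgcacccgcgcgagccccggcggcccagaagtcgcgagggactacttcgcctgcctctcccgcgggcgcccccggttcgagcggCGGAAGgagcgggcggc
*Dusp5* promoter, chr19:53528895-53529144: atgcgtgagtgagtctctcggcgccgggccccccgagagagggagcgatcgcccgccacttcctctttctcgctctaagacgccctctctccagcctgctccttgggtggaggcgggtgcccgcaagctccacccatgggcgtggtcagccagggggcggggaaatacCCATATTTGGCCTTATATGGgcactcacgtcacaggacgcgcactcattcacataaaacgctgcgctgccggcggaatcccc
The *Dusp6* promoter held 1 CGGAAG, in its reverse complement CTTCCG, from 62 to 57 bases before the start. The *Spred1* promoter held 1 from 17 to 12 bases before the start. The *Dusp5* promoter held 2 adjacent CArG boxes, from 82 to 73 and from 72 to 63 bases before the start. Of 32851 promoter windows of the same length in the table, 13.6% held CGGAAG, 6.75% the AP-1 site, 1.55% the CRE site and 1.47% the CArG box. The windows of *Spry1*, *Spry2* and *Etv5* held no match to these motifs, which does not show that they lack an ETS site of another form. Hepatocyte ratios were above 1 for the genes with a match and for those without, and a link between match and ratio was not tested. A match describes the sequence and not a site in use, and *Dusp4*, *Spry4*, *Etv4* and *Phlda1* were not examined this way.

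The genes differed in the cell type where they were highest. Over the 5 larger types, *Spry2* and *Etv5* had the same order of types in both libraries, and the other 8 genes did not. Besides hepatocytes there were 754 and 1225 endothelial nuclei, 801 and 1140 HSCs, 554 and 1387 macrophages, and 102 and 445 cholangiocytes. There were also 121 and 197 T cells, and 69 and 84 B cells with few UMIs of these genes. The whole marker list was raised in each of these types, but the same lists had assigned the nuclei to the types. Hepatocyte RNA was present in all of them: the hepatocyte marker list reached 16.3% and 13.2% of its hepatocyte level in endothelial nuclei, 12.7% and 10.0% in HSCs, 12.8% and 10.6% in macrophages and 25.2% and 16.5% in cholangiocytes. A member whose level in another type is under these shares of its hepatocyte level is read as background there.

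**Figure D2:**
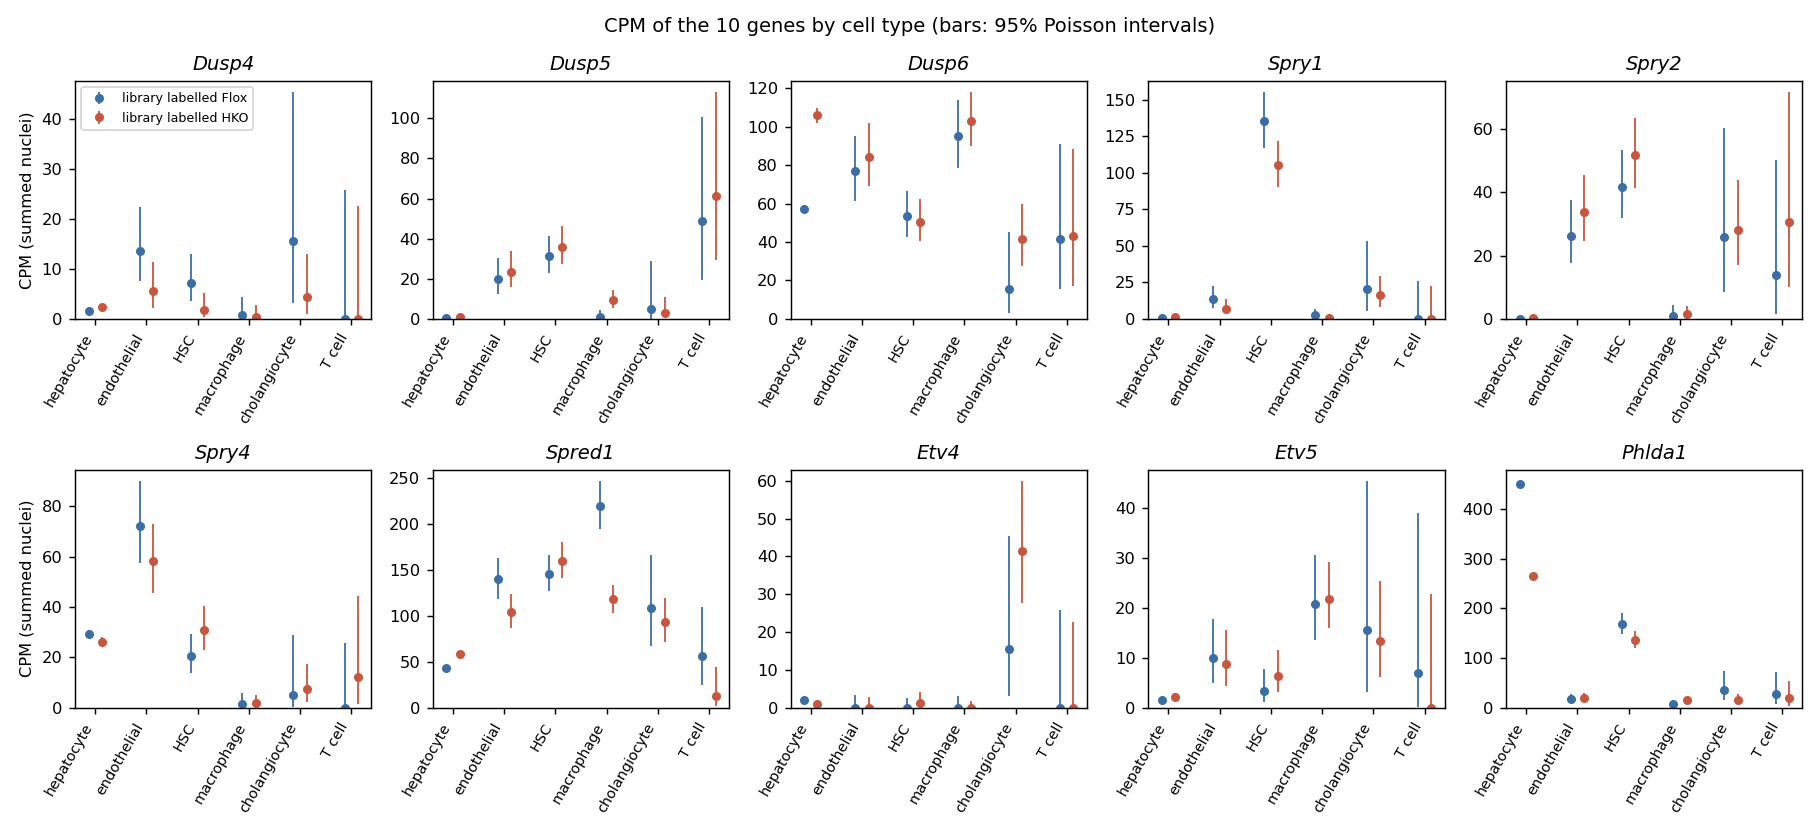
CPM of each gene by cell type in the 2 libraries, each panel with its own linear axis from 0. Points are CPM of the summed nuclei and bars 95% Poisson intervals; *Spry1* and *Spry2* are highest in HSCs, *Spry4* in endothelial nuclei, and *Phlda1* in hepatocytes and then HSCs.

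The Sprouty genes were all highest outside hepatocytes. *Spry1* was a gene of HSCs, at 135 (117–155) and 105 (90.4–122) CPM there, against 13.6 and 7.08 CPM in endothelial nuclei and 2.40 and 0.969 CPM in macrophages. Cholangiocytes came next after HSCs with 20.7 and 16.3 CPM on 4 and 11 UMIs, and their intervals overlapped those of endothelial nuclei. Within HSCs the ratio was 0.779 (0.634–0.956), and in the nuclei led by quiescence markers (632 and 676) it was 0.725 (0.564–0.929). In the nuclei led by collagen markers (141 and 403) *Spry1* was at 95.1 and 109 CPM, a ratio of 1.15 (0.725–1.87).

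*Spry2* was also highest in HSCs, at 41.7 and 51.7 CPM, with a ratio of 1.24 (0.888–1.74). Endothelial nuclei followed at 26.2 and 33.8 CPM, and macrophages held 1 and 3 UMIs. *Spry4* had its highest level in endothelial nuclei, at 72.4 (57.4–90.1) and 58.2 (45.7–73.1) CPM, with a ratio of 0.804 (0.578–1.12). In the few vascular endothelial nuclei (105 and 193) it had 14 and 3 UMIs, or 94.6 and 15.1 CPM, while in sinusoidal nuclei (622 and 960) it was at 69.3 and 61.5 CPM. HSCs and hepatocytes came next for *Spry4*, and their order turned between the libraries: HSCs had 20.5 and 30.8 CPM beside the 29.1 and 26.0 CPM of hepatocytes. Its macrophage level was 5.49% and 7.45% of that in hepatocytes, under the share of the hepatocyte markers.

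*Spred1* had UMIs in every type of both libraries except the B cells of that labelled HKO. It was at 219 (194–246) and 118 (103–133) CPM in macrophages, 145 and 160 CPM in HSCs, 139 and 104 CPM in endothelial nuclei and 109 and 93.3 CPM in cholangiocytes, all above hepatocytes. Macrophages led in the library labelled Flox and HSCs in that labelled HKO. The macrophage level in the library labelled HKO was 0.538 times (0.451–0.641) that in the library labelled Flox. This difference held in macrophages led by Kupffer cell markers (433 and 799 nuclei), with 221 and 129 CPM and a ratio of 0.586 (0.475–0.721), and in those led by *Trem2* markers (77 and 437 nuclei), with 187 and 101 CPM and a ratio of 0.541 (0.349–0.854). In endothelial nuclei the ratio was 0.745 (0.586–0.947), and in HSCs 1.10 (0.919–1.32). After thinning, 18.0% (14.8–21.5) and 11.2% (9.41–13.2) of macrophages held a *Spred1* UMI, and 34.5% and 14.9% without thinning.

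Among the phosphatases, *Dusp6* had UMIs in every type of both libraries except the B cells of that labelled Flox, and its place changed with the library. In the library labelled Flox macrophages led with 95.1 (78.8–114) CPM, ahead of endothelial nuclei with 76.9 CPM, hepatocytes with 57.0 CPM and HSCs with 53.6 CPM. In the library labelled HKO hepatocytes had 106 CPM, macrophages 103 (89.8–118), endothelial nuclei 84.2 and HSCs 50.5, and the intervals of hepatocytes and macrophages overlapped. Outside hepatocytes its ratios were 1.09 (0.863–1.37) in macrophages, 1.09 (0.816–1.47) in endothelial nuclei and 0.942 (0.688–1.29) in HSCs. The intervals of these 3 types end below that of the hepatocyte ratio (1.76–1.96). Cholangiocytes, with 3 and 28 UMIs, had a ratio of 2.67 (0.826–13.7), whose interval holds that of hepatocytes. Nuclei that were mixed, unassigned or of the rarest types had 65 and 139 UMIs and a ratio of 1.70 (1.26–2.32). A higher *Dusp6* level in the library labelled HKO was therefore not shown to be confined to hepatocytes.

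*Dusp5* was a gene of nonparenchymal nuclei, with 31.1 and 36.0 CPM in HSCs, 19.9 and 23.6 CPM in endothelial nuclei and 48.8 and 61.4 CPM in T cells on 7 and 10 UMIs. All 22 and 29 of its UMIs in the endothelial nuclei led by sinusoidal or vascular markers lay in sinusoidal nuclei, and vascular nuclei had none, which allows up to 20.3 and 15.1 CPM there. Macrophages held 1 and 19 UMIs, a ratio of 11.5 with a counting interval of 1.83 to 479. Of these 19, macrophages led by *Trem2* markers held 15 (23.4 CPM), where the library labelled Flox had none, a count that allows up to 17.6 CPM in its 77 nuclei. *Dusp4* was low in every type, with 11 and 3 UMIs in HSCs and 15 and 7 in endothelial nuclei. Its ratios there were 0.239 (0.0429–0.906) and 0.406 (0.140–1.06), below 1 where the hepatocyte ratio was above it.

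The ETS factors were found in different cells. *Etv5* was highest in macrophages, at 20.8 (13.6–30.4) and 21.8 (15.9–29.2) CPM, with a ratio of 1.05 (0.634–1.77). *Etv4* was highest in cholangiocytes, at 15.5 (3.20–45.3) and 41.5 (27.5–59.9) CPM on 3 and 28 UMIs. It had no UMI in endothelial nuclei or macrophages of either library, which allows up to 2.71 and 2.36 CPM in endothelial nuclei and so leaves them indistinguishable from hepatocytes. In the library labelled HKO cholangiocytes and hepatocytes had non-overlapping *Etv4* intervals, and cholangiocytes held about as many of its UMIs as the 4452 hepatocytes did.

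*Phlda1* was second highest in HSCs, at 169 (149–191) and 137 (120–155) CPM, or 37.5% and 51.6% of its hepatocyte level. The HSC ratio was 0.809 (0.674–0.969), closer to 1 than that of hepatocytes. In endothelial nuclei and macrophages its level was at most 7.43% of that in hepatocytes, under the share of the hepatocyte markers.

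In counts, HSCs had 7 members with at least 50 UMIs, of which 1 was past 1.5-fold upward (*Spry4*, 1.5, with an interval of 0.945 to 2.42) and none downward, against 5.39% and 12.4% of all 7584 genes tested. None of the 5 members tested in endothelial nuclei was past the fold in either direction, where 4.78% of 6848 genes were higher and 9.35% lower. In macrophages 1 of 3 was lower (*Spred1*) and none higher, against 12% of 7863 genes lower and 5.13% higher. Shares of nuclei by type differed between the libraries, and fewer nuclei of a type cannot be told apart from unequal recovery by the sort and the pooling.

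Hepatocytes were divided into zones by the pericentral genes *Glul* and *Slc1a2*: nuclei with at least 0.1% of their UMIs in these were taken as zone 3, 1082 (18.6%) and 756 (17.0%) nuclei. The division was borne out by genes not used for it, with *Oat* 14.6-fold and 18.9-fold higher in zone 3 and *Hal* at 0.032 and 0.026 times the level of the other nuclei. Between 0.05% and 0.2% lay 271 and 204 nuclei.

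*Dusp6* was a pericentral gene in both libraries. In the library labelled Flox zone 3 nuclei had 101 and the others 49.1 CPM, a ratio of 2.06 (1.89–2.25), and in the library labelled HKO 178 and 93.6 CPM, a ratio of 1.90 (1.75–2.07). Across 5 classes of *Glul* plus *Slc1a2* share, its level went from 44.3 CPM in nuclei with none to 103 CPM in those with 0.3% or more in the library labelled Flox, and from 84.0 to 187 CPM in that labelled HKO. The increase from class to class was unbroken in the first library, and in the second the class of 0.05 to 0.1% (105 nuclei) stood above that of 0.1 to 0.3% (169 nuclei) with overlapping intervals.

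*Phlda1* was pericentral too, with 592 against 425 CPM (ratio 1.39, 1.35–1.44) and 410 against 240 CPM (ratio 1.71, 1.62–1.81). *Spred1* leaned the same way in the library labelled Flox, at 53.4 against 40.9 CPM (1.31, 1.16–1.46), while in that labelled HKO the ratio of 1.12 had an interval of 0.976 to 1.28. *Spry4* showed no slope in the library labelled Flox (0.951, 0.813–1.11) and a higher zone 3 level in that labelled HKO (1.32, 1.09–1.60). *Spry1* had 1 of its 33 and 1 of its 40 hepatocyte UMIs in zone 3, a zone ratio of 0.173 (0.00425–1.04) and 0.150 (0.00369–0.884).

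**Figure D3:**
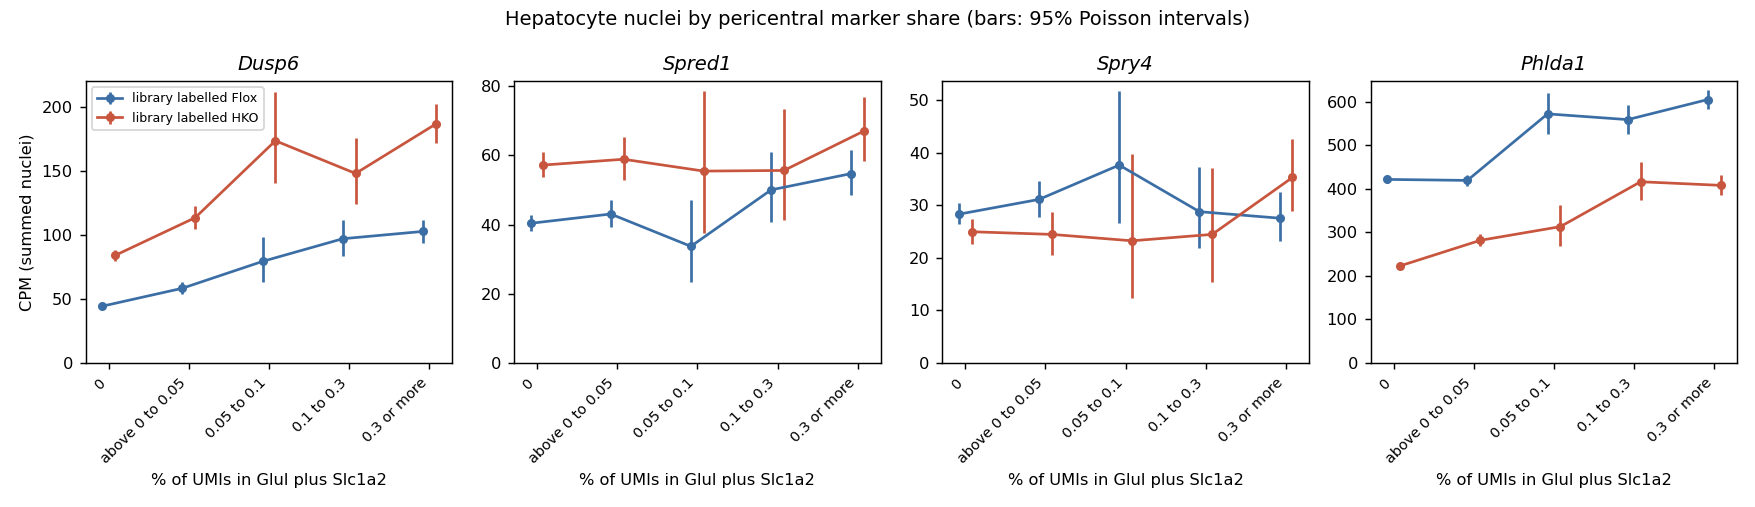
CPM of *Dusp6*, *Spred1*, *Spry4* and *Phlda1* in hepatocyte nuclei grouped by the percent of UMIs in *Glul* plus *Slc1a2*, with 1 line for each library. Bars are 95% Poisson intervals; *Dusp6* goes from 44.3 to 103 and from 84.0 to 187 CPM, and the *Phlda1* line of the library labelled HKO stays below that of the library labelled Flox in every class.

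The library difference was found within both zones. For *Dusp6* the ratio of the libraries was 1.76 (1.58–1.96) in zone 3 and 1.91 (1.79–2.03) in the other hepatocytes. For *Phlda1* it was 0.692 (0.653–0.733) in zone 3 and 0.564 (0.547–0.582) elsewhere, with intervals that did not overlap. *Spry4* had a ratio of 1.18 (0.937–1.48) in zone 3 and of 0.846 (0.764–0.936) elsewhere, and *Spred1* 1.21 (1.03–1.42) and 1.41 (1.31–1.51). *Etv4* had 9 and 2 UMIs in zone 3, and 88 and 24 elsewhere with a ratio of 0.457 (0.278–0.724).

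Of the 4 members with at least 50 UMIs in zone 3, 1 was at least 1.5-fold higher (*Dusp6*) and none lower, against 8.02% and 11.4% of 10309 genes. In the other hepatocytes 3 of 9 were higher (*Dusp6*, *Dusp5* and *Spry1*) and 2 lower (*Phlda1* and *Etv4*), against 10.1% and 11.9% of 12939 genes.

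The study followed disease-associated hepatocytes (daHep), so members were also compared within each library between hepatocyte nuclei with UMIs of at least 2 of 6 daHep markers (*Nrg1*, *Anxa2*, *Gdf15*, *Sox4*, *Klf6* and *Jun*) after thinning to 1000 UMIs and the rest. These were 124 (2.14%) and 225 (5.13%) nuclei. Their median depth was near that of the others in the library labelled Flox, 7471 against 7450 UMIs. The comparison was not split by zone, although *Dusp6* and *Phlda1* differed between zones, and a part of zone in it was not tested.

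*Dusp6* was higher in the nuclei with daHep markers, at 93.6 against 56.2 CPM (ratio 1.67, 1.34–2.05) and 150 against 103 CPM (ratio 1.45, 1.25–1.67). *Spry4* was lower there in both libraries, at 13.2 against 29.5 CPM (0.448, 0.238–0.769) and 14.3 against 26.6 CPM (0.539, 0.323–0.848). The phosphatase and this inhibitor lay on opposite sides of 1 in both libraries. *Phlda1* had ratios of 0.917 (0.829–1.01) and 0.823 (0.730–0.926), and *Spred1* of 0.852 (0.595–1.18) and 1.09 (0.862–1.35). *Etv5* had no UMI in these nuclei of either library, which allows up to 3.05 and 2.26 CPM, beside 1.47 and 2.32 CPM in the rest. *Dusp4* had 3 and 8 UMIs, with ratios of 1.96 (0.394–5.96) and 2.84 (1.17–5.99).

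**Figure D4:**
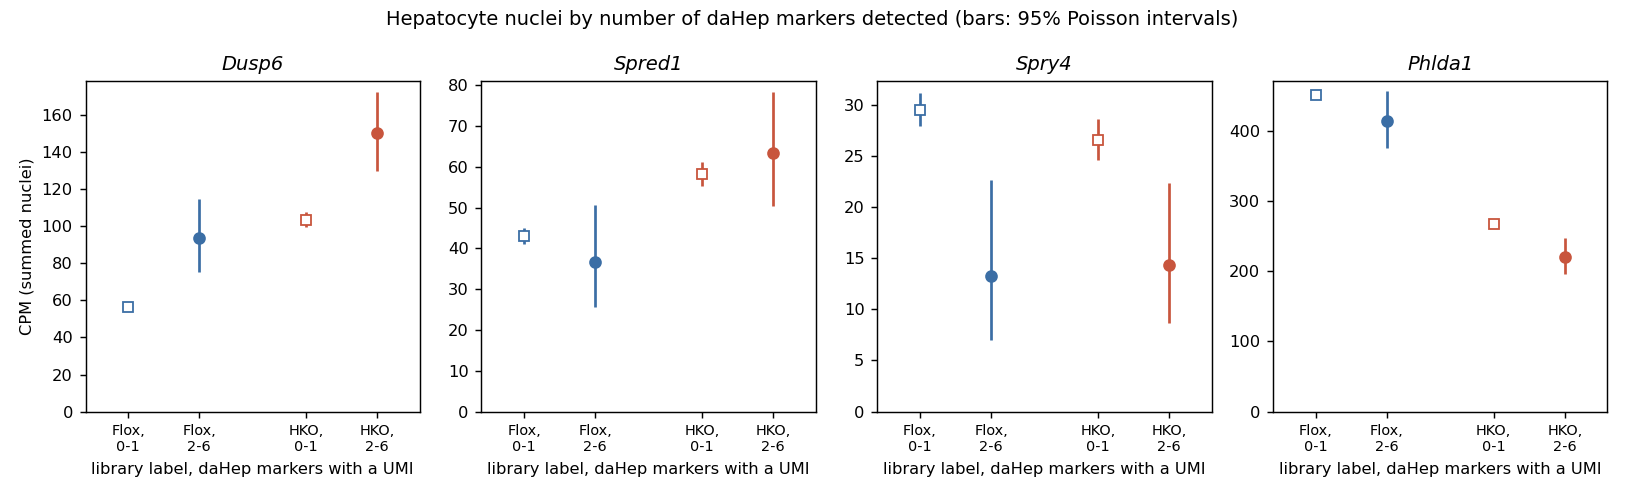
CPM of *Dusp6*, *Spred1*, *Spry4* and *Phlda1* in hepatocyte nuclei with 0 to 1 (open squares) and 2 to 6 (filled circles) daHep markers, by library, with 95% Poisson intervals. In both libraries *Dusp6* is higher and *Spry4* lower in the nuclei with more markers.

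With at least 1 marker in place of 2 the *Dusp6* ratios were 1.20 and 1.21 and the *Spry4* ratio of the library labelled Flox was 1.10. Among hepatocytes with fewer than 2 markers, 5674 and 4159 nuclei, the *Dusp6* levels of 56.2 and 103 CPM still lay apart.

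The other genes of the pathway were read from 4 lists in the same hepatocytes. Of 33 genes of the cascade itself, from receptors to the ribosomal S6 kinases, 29 had at least 50 UMIs. Only *Rps6ka3*, a kinase that ERK activates, was at least 1.5-fold higher (7.29 and 12.9 CPM, 1.77), and *Rps6ka1*, a kinase of the same family, had a ratio of 1.45. *Egfr*, the receptor of epidermal growth factor, was at 356 and 92.2 CPM, a ratio of 0.259 (0.248–0.270), and *Met*, the receptor of hepatocyte growth factor, at 194 and 124 CPM, a ratio of 0.638 (0.613–0.664). *Map2k2* was the next lowest with 0.823. The adaptor *Grb2* had a ratio of 0.895, and the phosphatases *Ptpn11* and *Ptpn6* 1.10 and 1.15. The median log2 ratio of the list was 0.18.

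Of 21 other phosphatases and inhibitors, 15 could be read, of which 2 were higher and none lower, with a median of 0.12. These were *Dusp1*, a nuclear phosphatase of several MAP kinases, with 41.7 and 93.6 CPM (2.24), and *Dusp8* (1.37 and 3.64 CPM, 2.65). *Dusp3* followed at 1.32, and the lowest were *Sulf2* (0.685), *Pebp1* (0.810) and *Rasa3* (0.929). Of 18 other ETS factors 11 could be read, with 3 higher and none lower and a median of 0.28. *Ets2* had 10.9 and 19.4 CPM (1.78), *Ets1* 4.35 and 6.90 CPM (1.59) and *Elf3* 0.457 and 1.25 CPM (2.73). The lowest were *Etv6* (0.751), *Etv3* (0.871) and *Elk4* (0.862).

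Of 24 other ERK-responsive genes 15 could be read, with 7 higher, 2 lower and a median of 0.35. *Ccnd1*, which codes cyclin D1, was at 18.2 and 73.2 CPM, a ratio of 4.01. *Ier3*, an immediate early gene, was at 1.98 and 8.78 CPM (4.43), *Myc* at 6.42 and 16.5 CPM (2.56) and *Egr1* at 7.49 and 15.1 CPM (2.01). A pair of immediate early genes of the same list went the other way: *Junb* had 86.1 and 36.2 CPM (0.420) and *Ier2* 51.2 and 33.4 CPM (0.651), and *Phlda2*, the next lowest, had 41 and 17 UMIs (0.699). Beside the 10.4% of all genes, the cascade list held a smaller share of genes past the fold upward, with 1 of 29. The phosphatases and inhibitors were near that share of all genes, with 2 of 15. Larger shares were found for the ETS factors, with 3 of 11, and the ERK-responsive genes, with 7 of 15. The lists were chosen with earlier results of these data known, so their shares are a description and not a test. Downward, 2 of 29, 0 of 15, 0 of 11 and 2 of 15 were past the fold in the same order of lists, against 11.9% of all genes. As for the 10 genes, no list moved as a whole.

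**Figure D5:**
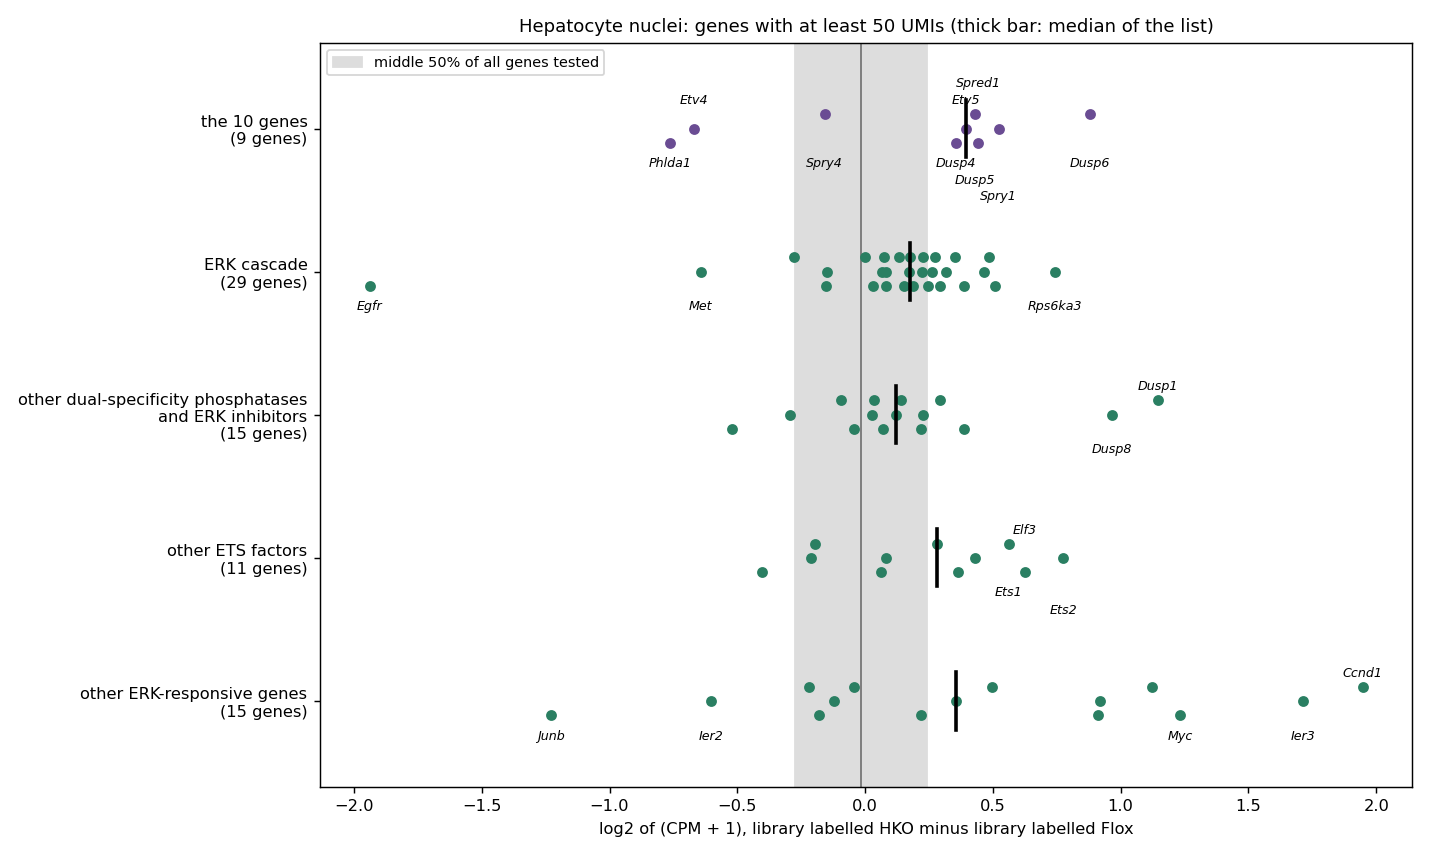
Log2 ratio (pseudocount 1 CPM) of the library labelled HKO over the library labelled Flox in hepatocytes for the 9 of the 10 genes and for the genes of 4 pathway lists with at least 50 UMIs. Each point is a gene, names mark the 10 genes and those list members past 1.5-fold that the text names by rank, thick bars are list medians (0.39, 0.18, 0.12, 0.28 and 0.35) and the grey band holds the middle 50% of all 13193 genes; *Egfr* lies farthest to the left and *Ccnd1* farthest to the right.

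For the 8 members with at least 200 UMIs over all types, the genes most like them were sought by Pearson correlation of log2(CPM + 1) over 14 points, 7 cell types in each of 2 libraries, among 12620 genes. The points share libraries and depth, and the values are a description. Some points rest on few UMIs: *Dusp6* had 0 and 1 in B cells and 6 and 7 in T cells. *Spry1* came closest to *Eps8* (0.993), *Lhfp* (0.976) and *Fhl1* (0.973), and *Spry2* to *Slco3a1* (0.968), *Auts2* (0.957) and *Rarg* (0.949). *Spry4* came closest to *Adarb1* (0.970), *Isca1* (0.927) and *Dock6* (0.925), and *Spred1* to *Tfe3* (0.939), *Stk3* (0.935) and *Tdrd7* (0.925). *Dusp6* came closest to *Xdh* (0.955), *Grina* (0.954) and *Med17* (0.951), *Dusp5* to *Adora2a* (0.910), *Adgrl1* (0.896) and *Srrm1* (0.863), *Etv5* to *Specc1* (0.953), *Gm29488* (0.949) and *Jdp2* (0.941), and *Phlda1* to *C1s1* (0.965), *Ndrg2* (0.947) and *G0s2* (0.930). No gene was shared between these lists, and no member was among the 3 nearest of another.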

How the data were processed

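The files the authors deposited give whole UMI counts, gene by nucleus, without normalization. Cell Ranger 8.0.1 had produced them against GRCm38, counting no intronic reads. Counts of nuclear RNA without introns hold mainly spliced or 3′ exonic reads, which lowers the counts of genes whose nuclear transcripts are mostly unspliced. The lowest total of a nucleus was 500 UMIs.

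Nuclei with at least 300 detected genes were kept, and Scrublet (scanpy 1.11.5) removed the highest-scoring nuclei at 0.8% per 1000 nuclei, 701 and 920. The deposited matrices do not show whether doublets had been removed before. A nucleus was a hepatocyte where the hepatocyte markers held at least 0.75% of its UMIs and no other list passed its own limits. The limits of another type were at least 3 UMIs and 0.1% of UMIs in its markers. A nucleus below the hepatocyte share that passed them was that type, as long as a second list did not exceed 50% of the first. Names stand for a resemblance to the type. Mixed nuclei (229 and 292) and unassigned nuclei (116 and 506) were left out. Near the hepatocyte limit (0.5 to 1.125%) lay 594 and 899 nuclei. Subsets of macrophages, HSCs and endothelial nuclei were told by which of a pair of marker lists led.

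UMIs were summed per type and library and given as CPM. Intervals (95%) are exact Poisson for CPM, exact conditional binomial for ratios and Clopper-Pearson for shares of nuclei. A count of 0 allows up to 3 counts of the total. A gene was called at a ratio of 1.5 or more, or its inverse, with at least 50 UMIs in both libraries together. Log2 ratios carry a pseudocount of 1 CPM. With 1 library per group there was no test. The ratio and its interval were tested on simulated data. Gene positions are from GENCODE M21 (GRCm38). Promoter windows of 6 of the 10 genes were searched in RefSeq's promoter table.

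The genes described and the pathway lists were chosen with earlier results of these data known. Named genes are all 10 members, the 3 highest and 3 lowest of each pathway list by log2 ratio with *Grb2*, *Ptpn11*, *Ptpn6*, *Ccnd1*, *Ier3* and *Egr1*, and the 3 genes most correlated with each member; 1 gene so named is not reported here. Alternatives covered doublets, the gene minimum, scaling (edgeR 4.0.16 TMM factors in R 4.3.3, and size factors), the mean over nuclei, the pseudocount, the UMI minimum, cell type rules, zone limits, daHep markers and thinning. Subsets of hepatocytes by depth and by daHep markers were added as alternatives after seeing the data.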

Additional observations from a re-analysis of the deposited data

Results flagged for a closer look

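Genes with at least 50 UMIs in each of the types compared were examined here. For 2 of them the ratio of the library labelled HKO over that labelled Flox lay on opposite sides of 1 in different cell types. The counting intervals did not reach 1 on either side. *Dusp4* had the same pattern on fewer UMIs, with 0.239 (0.0429–0.906) in HSCs on 11 and 3 UMIs and 1.46 (1.02–2.07) in hepatocytes. The differences between types were not tested, since each rests on 1 library per group. *Spry1* had a ratio of 0.779 in HSCs and of 2.04 in hepatocytes, where it held 33 and 40 UMIs. HSC markers in hepatocytes reached 0.161% and 0.286% of their HSC level, a share that the cell type rule limits. *Spred1* had a ratio of 0.745 in endothelial nuclei and of 0.538 in macrophages, against 1.37 in hepatocytes.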

How the results depend on the processing

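No paired analysis was possible because each genotype had 1 library. The counts of members past 1.5-fold in hepatocytes moved most. In place of 4 higher members there was 1 (*Dusp6*) in nuclei without a UMI of other types' markers and 1 (*Dusp6*) with a minimum of 200 UMIs, where 4 members could be read, and there were 2 (*Dusp6* and *Dusp4*) in nuclei of 4000 to 8000 UMIs, an alternative added after seeing the data. In place of 2 lower members there was 1 (*Phlda1*) without other types' markers and 1 (*Phlda1*) with 200 UMIs. Fewer nuclei or fewer genes tested are part of each of these settings. Members near the limit also changed sides under other settings. *Etv5* fell below the fold with TMM factors (1.497) and without doublet removal (1.44). *Dusp4* passed it with cell types told by clusters (1.52) and with the mean over nuclei (1.81). In nuclei without other types' markers 3 log2 ratios changed sign, *Dusp5* from 0.43 to -0.025, *Dusp4* from 0.36 to -1.18 and *Spry4* from -0.16 to 0.13, and the cause was not tested. No member changed sign under the other alternatives for hepatocytes. Over 14 alternatives *Dusp6* stayed between 0.79 and 0.99, *Phlda1* between -0.90 and -0.75 and *Spred1* between 0.38 and 0.45, while *Spry4* ranged from -0.19 to 0.13 and *Dusp4* from -1.18 to 0.89. Without doublet removal no member was past the fold upward in HSCs (1 with removal) and 1 was in macrophages (0 with removal). With 200 UMIs, 1 in place of 2 phosphatases and inhibitors was higher. With at least 1 daHep marker the *Dusp6* ratios were 1.20 and 1.21 in place of 1.67 and 1.45, and the *Spry4* ratio of the library labelled Flox was 1.10 in place of 0.448. The HKO over Flox ratio of the shares of hepatocytes with a *Phlda1* UMI was 0.594 at 500 UMIs and 0.684 at 1000. Under all alternatives together, 70 values of the main results stayed and 12 moved past their limits. Of the other values compared, 188 stayed, 8 moved and 1 was counted as reversed. Depth limits the 6 members with few hepatocyte UMIs, and 1 pooled library per genotype limits every comparison.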
